A study of Mus musculus with 4 samples.

Results

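The complement system was examined in the skin of Tsk1/+ mice through a list of 38 gene symbols for its components, receptors and regulators. The genes were found by the symbol of their array probes, with symbols updated through Entrez identifiers, and the probes of a gene were averaged. Of the 38 symbols, 35 had a named probe, with 51 probes in all, among 19532 genes tested. C1s is an older symbol of C1s1 and its probes are counted there; C3 and C7 were not analysed here. All 35 genes had a value on at least 3 arrays, which was the only filter.

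RNA from Tsk1/+ skin, in Cy3, was hybridised on 4 two-colour arrays together with a common reference in Cy5, which was cell-line RNA labelled UMR. Mice of the Tsk1/+ genotype carry 1 mutated copy of the gene for fibrillin-1, a protein of extracellular microfibrils, and serve as a model of scleroderma; the array titles call them transgenic, and the labels give neither age nor sex nor skin site. The arrays, numbered 1-1, 1-2, 2-1 and 2-2 in their titles, form 1 group, and no skin of wild-type mice was analysed here. Each value therefore sets Tsk1/+ skin against cultured cells and carries no information on the effect of the mutation. A ratio depends on the level in the cell line as much as on the level in skin. The words cell line below stand for this reference, whether it holds RNA of 1 line or of several. Which cell types it holds was not tested. Whether the 4 samples came from separate animals is not stated, so p-values reflect only how far these 4 samples differ, possibly for technical reasons, and the number of arrays limits the precision.

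Complement is a set of plasma and membrane proteins that marks microbes, immune complexes and dying cells. The classical pathway starts with C1q and its proteases, the lectin pathway with sugar-binding lectins and the MASP proteases, and the alternative pathway amplifies both through factor B and properdin. All 3 pathways converge on cleavage of C3 and then C5, release of the small peptides that act on anaphylatoxin receptors, and assembly of the membrane attack complex from C5b to C9. Most circulating components are made in the liver, C1q mainly by macrophages and related cells, and host cells carry inhibitors such as CD55 and CD59.

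The labels do not name the numerator of the ratio. The likely direction was read from genes of cornified epidermis, which had deposited medians of -5.46, -4.73, -4.77 and -5.61 in the order 1-1, 1-2, 2-1 and 2-2 (14 genes). For 12 skeletal muscle genes the deposited medians were -6.1, -5.62, -5.55 and -6.64. Cornified cells and muscle are found in skin samples and hardly in cell lines, so the deposited signs were turned round. A positive log2 ratio below means skin above the cell line, and each "higher" or "lower" rests on this reading. Skin carried the same dye on every array, so a dye effect and a difference in level cannot be told apart. Pearson correlations between arrays, across probes, lay between 0.823 and 0.889, and no array stood apart. Exact zeros made up 21.4% to 29.1% of the probes of an array.

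Of the 35 complement genes, 12 were higher in Tsk1/+ skin than in the cell line and none was lower. The rule was a limma Benjamini-Hochberg adjusted p under 0.05 and a size, as mean log2 ratio, of 1 or more, a 2-fold difference. Across all 19532 genes, 11.0% were called higher and 7.52% lower by the same rule. C4bp, C8g, Masp1 and Masp2 lay below 0 with an unadjusted limma p under 0.05, for which no share of all genes was taken. By adjusted p with no minimum size, 2 complement genes (Masp1 and C8g) and 3870 of all 19532 genes were lower, so these do not set the list apart. The share of complement genes called higher was 34.3%. Their median log2 ratio was 0.29, against 0.02 over all genes tested. The 12 genes were C1qa, C1qb, C1qc and C1s1 of the classical pathway, Fcna of the lectin pathway, C2 and C4b, Cfb and Cfp of the alternative pathway, and the regulators Serping1, Cd55 and Cd59a. Each of the 12 stood above 1 on all 4 arrays, and their adjusted p-values ranged from 0.000252 for Fcna to 0.00726 for Cd55. None of 6 measured genes of the terminal pathway and none of 4 receptors in the list was called. In groups this small, such counts do not differ clearly from the 11.0% of all genes called higher. In bulk skin, fewer cells of a type and less RNA per cell cannot be told apart.

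**Figure D1:**
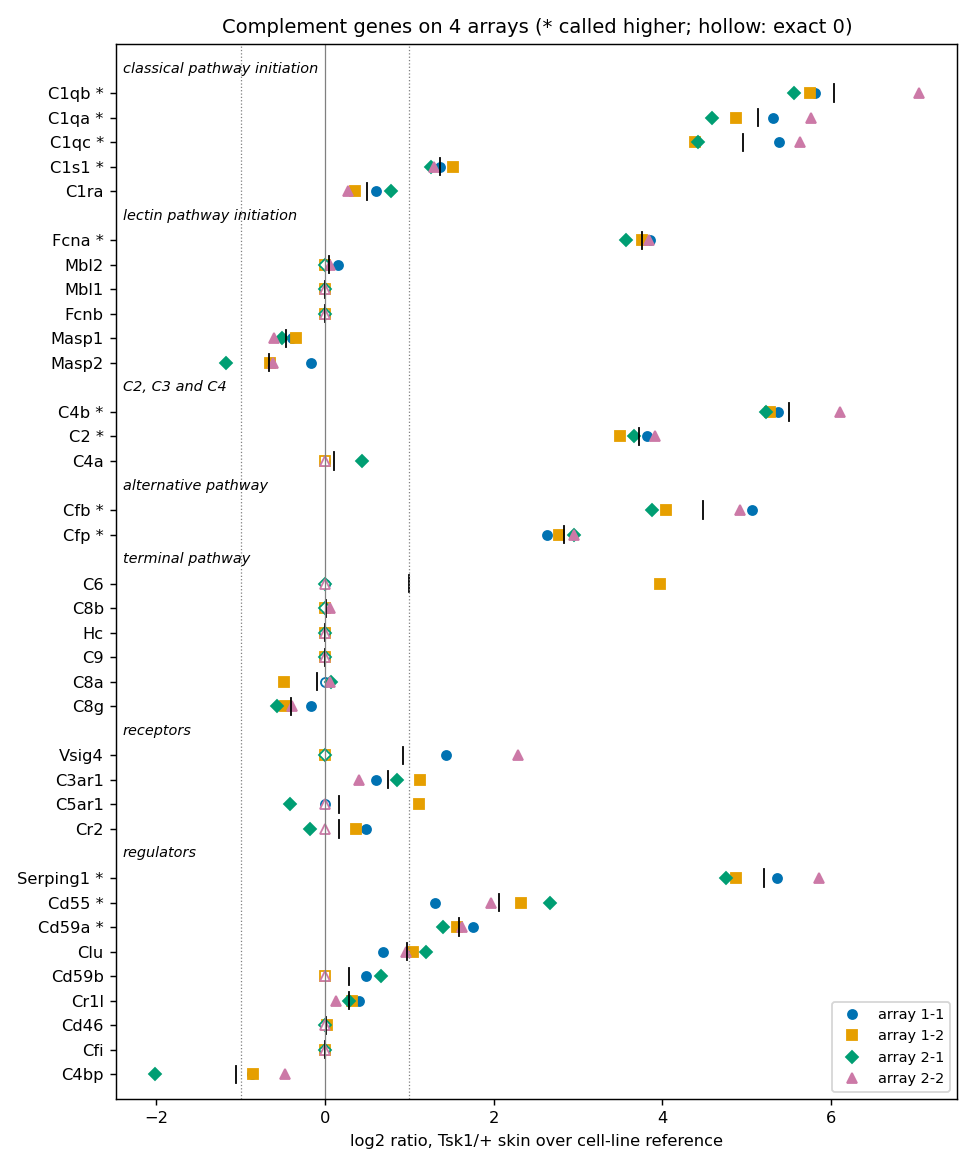
Log2 ratio of Tsk1/+ skin over the cell-line reference (x axis) for 35 complement genes grouped by role; each marker is 1 array, the black bar is the mean of 4 arrays, hollow markers are exact zeros, dotted lines mark 1 and -1, and asterisks mark the 12 genes called higher. The C1q chains, C4b, Serping1 and Cfb lie farthest right, and the terminal pathway genes lie near 0 except C6 on array 1-2.

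**Figure D2:**
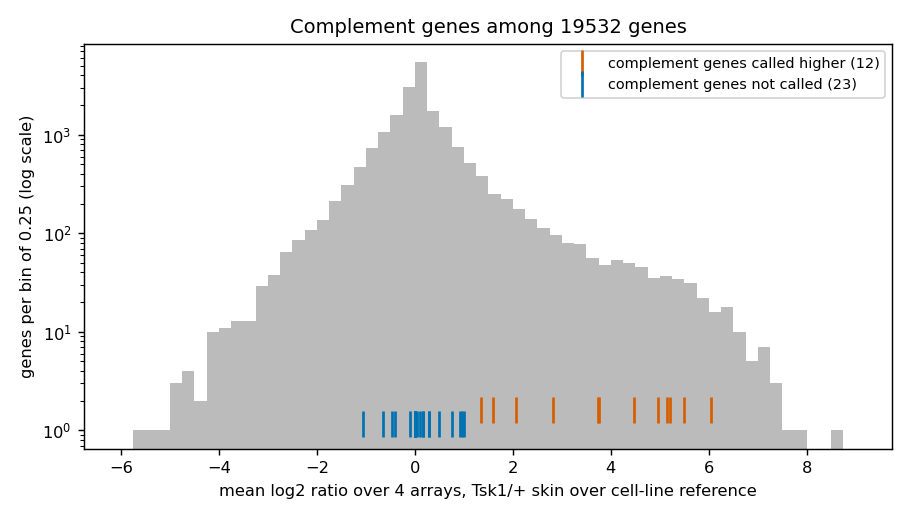
Distribution of mean log2 ratios (x axis) over 19532 genes (grey bars, number of genes per bin on a log axis), with ticks for the 12 complement genes called higher and the 23 not called. The called genes spread between 1.36 and 6.04, and the others lie between -1.05 and 1.0.

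The 3 chains of C1q, the recognition molecule of the classical pathway that binds antibody in complexes, had 3 of the 6 means above 4, and C1qb had the highest of all members. C1qb had log2 ratios of 5.81, 5.76, 5.56 and 7.05 on arrays 1-1, 1-2, 2-1 and 2-2. C1qa had 5.32, 4.88, 4.59 and 5.77 on the same arrays. C1qc had 5.39, 4.39, 4.43 and 5.64. All 3 chains were highest on array 2-2, and no array of any chain came below 4. Their means were 6.04 ± 0.68 for C1qb, 5.14 ± 0.52 for C1qa and 4.96 ± 0.65 for C1qc (SD, n = 4 arrays here and below). Limma's adjusted p was 0.000845 for C1qb, 0.000705 for C1qa and 0.00113 for C1qc. On a linear scale these means are ratios of 66.0 for C1qb, 35.3 for C1qa and 31.1 for C1qc. The mean of C1qb exceeded that of 99.7% of all genes. In RefSeq's table of the GRCm38.p6 mouse genome, C1qb, C1qc and C1qa are neighbours on chromosome 4, with no other protein-coding gene listed between them.

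C1r and C1s are the serine proteases bound to C1q. C1s1 had log2 ratios of 1.37, 1.52, 1.26 and 1.29 on arrays 1-1, 1-2, 2-1 and 2-2, a mean of 1.36 ± 0.11 (limma adjusted p = 0.000574). Its 2 probes had almost the same mean, 1.37 and 1.35. C1ra, its neighbour on chromosome 6, had 0.60, 0.36, 0.78 and 0.27, below the minimum size on every array (mean 0.50 ± 0.23, limma adjusted p = 0.0278). C1rb, a related C1r gene from outside the list of members, was higher at 1.38 ± 0.23 (limma adjusted p = 0.00192), and C1s2, a relative of C1s1, had 0.86 ± 0.44 and was not called. The proteases of C1 thus had smaller ratios to the cell line than the C1q chains on each array. Probes of C1ra and C1rb, or of C1s1 and C1s2, may share signal, since the genes are close relatives.

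C4 and C2 form the C3-cleaving enzyme of the classical and lectin pathways. C4b, the gene for complement C4 in mice, had log2 ratios of 5.37, 5.28, 5.23 and 6.11 (mean 5.50 ± 0.41, limma adjusted p = 0.000479). C4a, its near-identical relative known in mice as the sex-limited protein, had 0.44 on array 2-1 and an exact 0 elsewhere; the value 0.44 was one that 1684 probes of that array shared. For C4a, then, no array gave a value of its own. Whether the C4b probe also reads C4a was not tested. C2, the protease that pairs with C4, had 3.82, 3.50, 3.67 and 3.92 (mean 3.73 ± 0.18, limma adjusted p = 0.000307). Its 2 probes averaged 3.60 and 3.85. All 4 arrays lay within 0.42 of each other for C2, against 0.89 for C4b.

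Cfb encodes factor B, the counterpart of C2 in the alternative pathway, and lies next to C2 on chromosome 17. Its log2 ratios were 5.07, 4.05, 3.88 and 4.92 on arrays 1-1, 1-2, 2-1 and 2-2 (mean 4.48 ± 0.60, limma adjusted p = 0.00121). Arrays 1-2 and 2-1 were the lower ones. Cfp encodes properdin, which stabilises the enzyme that factor B forms with C3b. Cfp had 2.64, 2.78, 2.95 and 2.95 (mean 2.83 ± 0.15, limma adjusted p = 0.000320).

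Among lectin pathway genes, the soluble ficolin Fcna was the only one called of 6 measured (16.7%, against 11.0% of all genes called higher). Ficolins are lectins with a fibrinogen-like domain that bind acetylated sugars on microbes. Fcna had log2 ratios of 3.86, 3.76, 3.57 and 3.84, close together on all arrays (mean 3.76 ± 0.13, limma adjusted p = 0.000252). Fcnb, the second mouse ficolin, and Mbl1, a mannose-binding lectin, were listed at 0 on every array. Mbl2, the other mannose-binding lectin, had 0.16 on array 1-1, 0.06 on array 2-2 and an exact 0 elsewhere. Its value on array 1-1 was shared by 2785 probes and that on array 2-2 by 2166.

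The MASP proteases, which act for the lectins as C1r and C1s do for C1q, had values below 0 that did not pass the test. Masp1 had log2 ratios of -0.39, -0.34, -0.51 and -0.60 (mean -0.46 ± 0.12, limma adjusted p = 0.00573), which was under the minimum size. Its 4 probes differed: 1 probe had -1.58, -1.78, -1.56 and -1.91 (mean -1.71 ± 0.17), and the other 3 averaged -0.23, 0.00 and 0.09. Taken as a probe of its own among all probes, the lowest one was called lower (limma adjusted p = 0.000950). Of the 16 values of Masp1, 8 were exact zeros; with these left out Masp1 was called lower at -1.04 (limma adjusted p = 0.00235), and with shared values left out too at -1.71 (limma adjusted p = 3.19e-06). Masp2 had -0.16, -0.65, -1.18 and -0.62 (mean -0.66 ± 0.42, limma adjusted p = 0.0634). Its 3 probes averaged -0.20, -0.40 and -1.37, and the lowest had an exact 0 on array 1-1, with -1.76, -2.11 and -1.61 elsewhere. Masp1 gives rise to several transcripts; which of them each probe reads was not tested.

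Promoters are shown for C1qb and C1qc, neighbouring genes with log2 ratios above 4 on all arrays, and for Fcna, the lectin with the highest ratio. They run from 250 bases before to 50 after the gene start, 5′ to 3′ on the gene's strand, from RefSeq on GRCm38.p6. Capitals mark matches on either strand to 7 short motifs.
C1qb promoter (chr4:136886151-136886450, minus strand): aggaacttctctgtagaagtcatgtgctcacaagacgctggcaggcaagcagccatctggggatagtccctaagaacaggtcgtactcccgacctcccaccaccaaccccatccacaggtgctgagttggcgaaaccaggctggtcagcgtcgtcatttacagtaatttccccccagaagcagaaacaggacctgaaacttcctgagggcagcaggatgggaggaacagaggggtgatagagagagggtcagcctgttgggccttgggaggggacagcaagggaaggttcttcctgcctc
C1qc promoter (chr4:136892865-136893164, minus strand): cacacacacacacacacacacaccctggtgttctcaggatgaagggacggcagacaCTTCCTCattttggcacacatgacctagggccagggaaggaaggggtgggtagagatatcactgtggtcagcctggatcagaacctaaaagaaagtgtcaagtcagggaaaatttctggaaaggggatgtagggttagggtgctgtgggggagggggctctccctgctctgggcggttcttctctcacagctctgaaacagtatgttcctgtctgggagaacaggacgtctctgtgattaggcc
Fcna promoter (chr2:25627925-25628224, minus strand): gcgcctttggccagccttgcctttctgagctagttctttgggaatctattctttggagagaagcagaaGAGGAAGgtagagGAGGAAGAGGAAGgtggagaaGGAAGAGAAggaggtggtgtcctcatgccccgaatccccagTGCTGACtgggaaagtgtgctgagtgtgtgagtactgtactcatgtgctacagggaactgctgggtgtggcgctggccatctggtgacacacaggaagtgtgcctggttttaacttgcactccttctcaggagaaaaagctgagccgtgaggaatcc

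The motifs were GAGGAAG for PU.1, GGAANNGAA for a joint ETS and IRF site, TTNNGCAA for C/EBP, TTCNNNGAA for STAT, GGANTTTCC for NF-kB, TGCTGAC for MAF and TATAAA for a TATA box. PU.1 is a transcription factor of macrophages and other myeloid cells. The Fcna window held 3 PU.1 matches, 2 of which overlap by 1 base, with 1 ETS and IRF match and 1 MAF match. The C1qc window held 1 PU.1 match on the opposite strand, and the C1qb window held none of the 7. Of all 32851 promoters of that length, 13.6% held the PU.1 motif, 8.24% the ETS and IRF motif, 10.8% the C/EBP motif, 8.3% the STAT motif, 1.25% the NF-kB motif, 4.67% the MAF motif and 13.6% the TATA motif. Of the 12 genes called higher, 7 had a promoter in the table, with 8 promoters. PU.1 matches occurred in 2 of these 8, MAF matches in 2, C/EBP and joint ETS and IRF matches in 1 each, and the other 3 motifs in none. These are matches of letters and not measured sites.

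The terminal pathway, which forms the membrane pore, held no called gene among 6 measured. Of all genes, 11.0% were called higher and 7.52% lower, so a count this small does not set the pathway apart. Hc, the mouse gene for C5, and C9, the pore-forming subunit, were listed at 0 on all 4 arrays. C6, an early subunit of the complex, had 3.98 on array 1-2 and an exact 0 elsewhere (limma adjusted p = 0.452). C8a and C8b, neighbours on chromosome 4 for the α and β chains of C8, lay between -0.49 and 0.07, all at values shared by at least 681 probes of the array or at 0. C8g, the γ chain, had -0.16, -0.48, -0.57 and -0.39 (mean -0.40 ± 0.18, limma adjusted p = 0.0252) and stayed below the minimum size. Apart from C6 on array 1-2, no terminal gene reached 1 in size on any array.

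An exact 0 need not mean an equal level in skin and cell line. Mrc1, the mannose receptor of macrophages, had 6.63, 6.09 and 6.66 on arrays 1-1, 1-2 and 2-1 but an exact 0 on array 2-2. Of the 204 values of the 51 complement probes, 72 were exact zeros, 34 were values shared by at least 100 probes of the same array, and 98 were neither. For 13 of the 35 genes no array gave a value outside these 2 kinds: Mbl1, Mbl2, Fcnb, C4a, Hc, C8a, C8b, C9, C5ar1, Cr2, Cfi, Cd46 and Cd59b. A further 13 genes had neither zeros nor shared values on any probe, and 11 of these were called higher; C1ra and Clu were the remaining 2. For the first 13, the lack of a call does not show an equal level.

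None of the 4 receptors among the 38 symbols passed the test, where 11.0% of all genes were called higher. C3ar1, the receptor of the C3a peptide, had log2 ratios of 0.61, 1.13, 0.85 and 0.40 (mean 0.75 ± 0.31, limma adjusted p = 0.0211) and missed the minimum size. Of its 8 probe values, 4 were shared by at least 172 probes of the array and 1 was an exact 0. C5ar1, the main C5a receptor, had 1.11 on array 1-2, -0.42 on array 2-1 and an exact 0 elsewhere (limma adjusted p = 0.693). C5ar2, the second C5a receptor and not in the list of members, was higher at 2.46, 1.94, 2.05 and 1.82 (mean 2.07 ± 0.28, limma adjusted p = 0.00123). The C5a receptors thus differed in call; whether their ratios differ was not tested. Itgam and Itgax, the α chains of complement receptors 3 and 4 and also outside the list, were higher at 1.83 ± 0.64 and 1.08 ± 0.21 (limma adjusted p = 0.0129 and 0.00300). The 2 probes averaged 0.68 and 2.97 for Itgam and 0.39 and 1.77 for Itgax, so 1 probe of each gene lay below the minimum size. Itgb2, the β chain shared by both receptors, had -0.27 ± 0.16 and was not called (limma adjusted p = 0.0599). Vsig4, a receptor for C3b on tissue macrophages, had 1.44 on array 1-1, 2.29 on array 2-2 and an exact 0 elsewhere (limma adjusted p = 0.243). Cr2, which in mice encodes complement receptors 1 and 2 of B cells and follicular dendritic cells, lay between -0.18 and 0.49 (limma adjusted p = 0.433).

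Of 9 regulators measured, 3 were higher (33.3%, against 11.0% of all genes). Serping1 encodes C1 inhibitor, which inactivates C1r, C1s and the MASPs. Serping1 had log2 ratios of 5.36, 4.88, 4.76 and 5.86 on arrays 1-1, 1-2, 2-1 and 2-2 (mean 5.21 ± 0.50, limma adjusted p = 0.000653), a 37.1-fold ratio. Its mean exceeded that of 99.2% of all genes.

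Cd55 and Cd59a encode membrane inhibitors, CD55 of the C3-cleaving enzymes and CD59 of the membrane attack complex. Cd55 had log2 ratios of 1.30, 2.32, 2.67 and 1.97 (mean 2.07 ± 0.59, limma adjusted p = 0.00726). Its 4 probes averaged 4.35, 3.25, 0.67 and 0.00, and 7 of their 16 values were exact zeros. The probe with no zero had 5.21, 4.24, 4.21 and 3.75, so that array 1-1 was the highest by this probe and the lowest by the average. With zeros left out, Cd55 stood at 3.95 (limma adjusted p = 9.34e-05). With the median of its probes in place of the mean it stood at 1.82 and lost its call (limma adjusted p = 0.0880).

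Cd59a had log2 ratios of 1.76, 1.57, 1.40 and 1.62 (mean 1.59 ± 0.15, limma adjusted p = 0.000657), with probe means of 1.94 and 1.24. Cd59b, its neighbour on chromosome 2, had 0.49 on array 1-1, 0.66 on array 2-1 and an exact 0 elsewhere (limma adjusted p = 0.235). Cd46, a cofactor for cleavage of C3b that in mice is found mainly in testis, was listed at 0 on 3 arrays and at 0.03 on array 1-2. Cr1l, the mouse regulator Crry, had 0.40, 0.32, 0.28 and 0.13 (mean 0.28 ± 0.11, limma adjusted p = 0.0210), below the minimum size. One of its probes had an exact 0 on all arrays, and the other had 0.81, 0.64, 0.56 and 0.26, a mean of 0.57, which was also the value of Cr1l with zeros left out (limma adjusted p = 0.00617).

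Among soluble regulators besides Serping1, Clu, which encodes clusterin and binds forming membrane attack complexes, came nearest to being called higher. Clu had log2 ratios of 0.69, 1.05, 1.20 and 0.96 (mean 0.97 ± 0.21, limma adjusted p = 0.00392), just under the minimum size. Without array 1-1 it was called at 1.07 (limma adjusted p = 0.00745). Cfi, the protease factor I, was listed at 0 on all arrays. C4bp, the C4b-binding protein, had the lowest mean of the list, with -0.87, -0.85, -2.02 and -0.47 (mean -1.05 ± 0.67, limma adjusted p = 0.0634). Its 2 probes differed: 1 stood at -1.74, -2.10, -4.11 and -1.0, and the other between 0 and 0.40. That second probe had only an exact 0 and values shared by at least 1927 probes of the array. C4bp was called lower where exact zeros were left out (-1.27, limma adjusted p = 0.00621). With shared values left out too, it was called at -2.65 (limma adjusted p = 0.00131).

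**Figure D3:**
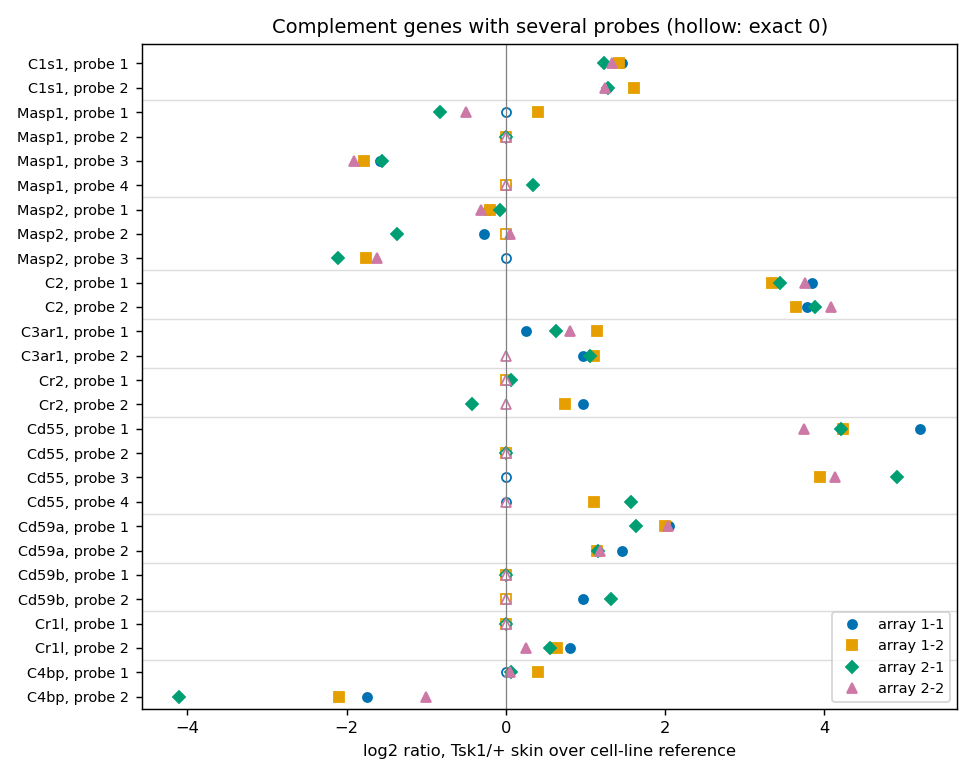
Log2 ratio of Tsk1/+ skin over the cell-line reference (x axis) for each probe of the 11 complement genes with more than 1 probe; each marker is 1 array and hollow markers are exact zeros. The probes of C1s1 and C2 lie together, while those of Masp1, Masp2, Cd55 and C4bp spread by over 1.

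The complement genes farthest above the cell line ordered the arrays in a similar way. The 6 complement genes with a mean above 4 were C1qa, C1qb, C1qc, C4b, Cfb and Serping1. All 6 had their lowest value on array 1-2 or 2-1, and 5 had their highest on array 2-2. The median distance from the gene's own mean was 0.16, -0.31, -0.51 and 0.64 on arrays 1-1, 1-2, 2-1 and 2-2. Over all 345 genes with a mean above 4 and no exact zero, the same medians were 0.19, -0.31, -0.34 and 0.43. Of these 345 genes, 82.3% were lowest on array 1-2 or 2-1 and 63.5% highest on array 2-2, so each feature held for most but not all genes with large ratios.

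**Figure D4:**
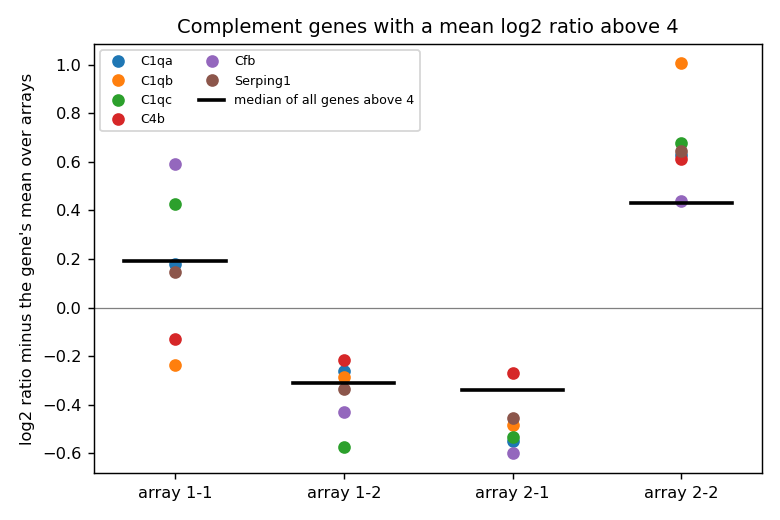
Log2 ratio minus the gene's mean over arrays (y axis) on each of 4 arrays for the 6 complement genes with a mean above 4 (coloured points); black bars are the medians of 345 genes with a mean above 4 and no exact zero. Points and bars lie above 0 on array 2-2 and below 0 on arrays 1-2 and 2-1.

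Of 22 other genes of complement biology measured outside the 38 symbols, 8 were higher (36.4%) and 2 lower, with a median log2 ratio of 0.44. Of all genes, 11.0% were called higher and 7.52% lower, and the count of 2 lower is near that share. The largest ratios among those called belonged to Colec11, a collectin that starts the lectin pathway (2.64 ± 0.26, limma adjusted p = 0.000681), Pros1, which encodes protein S (2.47 ± 0.15, limma adjusted p = 0.000374), and C5ar2. Colec12, a scavenger receptor with a collectin domain (-1.81 ± 0.25, limma adjusted p = 0.00131), and C1qbp, a mainly mitochondrial protein that binds C1q (-1.21 ± 0.12, limma adjusted p = 0.000716), were lower. Vtn, vitronectin, which blocks insertion of the membrane attack complex, had 3.66, 4.21 and 3.42 on arrays 1-2, 2-1 and 2-2 but an exact 0 on array 1-1 (limma adjusted p = 0.0734).

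Of 10 measured transcription factors known to act on complement genes, 3 were higher (30.0%, against 11.0% of all genes) and none was lower. They were Cebpa, a factor of fat cells, liver and myeloid cells (3.86 ± 1.02, limma adjusted p = 0.00608), Nr1h3, the oxysterol receptor LXRα (3.17 ± 0.50, limma adjusted p = 0.00173), and Irf8, an interferon regulatory factor of myeloid cells (1.20 ± 0.13, limma adjusted p = 0.000882). Probes of Cebpa averaged 2.74 and 4.99. Spi1, which encodes PU.1, had 0.81 ± 0.45 and was not called (limma adjusted p = 0.0445).

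Markers of cell types that skin or its blood can hold were counted by the same rule, which called 11.0% of all genes higher and 7.52% lower. Of 12 macrophage markers measured, 7 were higher and 1 was lower; their median was 1.49, 2.01, 1.82 and 1.13 on arrays 1-1, 1-2, 2-1 and 2-2, and none was at 0 on all arrays. Mrc1 and Lyve1 had exact zeros, and over the 10 markers without a zero, an alternative chosen after seeing the data, the medians were 1.5, 1.93, 1.76 and 1.58. Cd163 (5.10 ± 0.82), Folr2 (4.97 ± 0.64) and Lyz2 (4.24 ± 0.21) had the largest ratios among the macrophage markers called, and Cd14 (-1.12 ± 0.13) was the lower one. Folr2 and Lyz2 were highest on array 2-2, at 5.62 and 4.48, and Cd163 was highest on array 1-1, at 5.86, with 5.75 on array 2-2. Of 11 dermal fibroblast markers, 8 were higher and 1 was lower, and their median lay between 1.70 and 1.82 on each array. Lum (6.40 ± 0.08), Pi16 (4.99 ± 0.40) and Dpt (4.65 ± 0.51) led that list, and Twist2 (-1.12 ± 0.16) was lower. All 8 adipocyte markers, 7 of 8 keratinocyte markers and 5 of 8 endothelial markers were higher. Among those called, Cidec (7.69 ± 0.46), Krt10 (5.80 ± 0.56) and Tek (2.78 ± 0.26) had the largest ratios of these lists. Probes averaged 5.01 and 6.60 for Krt10 and 1.37 and 4.18 for Tek. Cldn5, an endothelial marker not called, had 4.75, 6.09 and 6.77 on arrays 1-1, 1-2 and 2-1 but an exact 0 on array 2-2. Emcn, also endothelial and not called, had 4.52 on array 1-1, 4.89 on array 2-2 and an exact 0 elsewhere. Of 7 hepatocyte markers none was called, and albumin (Alb) was listed at 0 on 3 arrays and at 1.41 on array 1-2. Cyp2e1, the hepatocyte marker with the highest mean, had 5.41, 5.04 and 5.63 on arrays 1-2, 2-1 and 2-2 but an exact 0 on array 1-1. Of 9 neutrophil markers none was higher and S100a8 was lower (-1.60 ± 0.26). S100a9, whose protein pairs with that of S100a8, had 3.53 on array 1-1, 4.59 on array 2-1 and an exact 0 elsewhere (limma adjusted p = 0.232). Of 6 markers of B cells and follicular dendritic cells none was higher, and Cd79b (-3.80 ± 0.21) and Ms4a1 (-3.77 ± 0.52) were lower. The part of these cell types in the complement ratios was not tested.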

How the data were processed

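Gene expression was measured on 4 two-colour arrays of Tsk1/+ skin, each against a common cell-line reference. Per the labels' protocols, 200 ng of total skin RNA was labelled with an Agilent kit. The authors deposited 1 log2 ratio of the channels per probe and array; the sources used here do not give background correction or normalization. The log base was read from the values: among the 40 commonest values of each array, 21 of 3120 pairs differed by the log2 of a 4-fold ratio (within 0.001), while the natural log and log10 gave 2 and 3 such pairs. The median of each column was 0, among the exact zeros, so whether arrays had been centred is unknown. The direction was also read from the values, and all signs were turned.

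The table holds 41174 probes, of which 32664 have 1 gene symbol, 45 several and 8465 none in the platform annotation; by Entrez ID, 32524 matched RefSeq's GRCm38.p6 table. Probes of a gene were averaged. The mean ratio of each gene was set against 0 in a two-sided test by lmFit and eBayes (limma 3.58.1, R 4.3.3). The 19532 genes tested had values on 3 or more arrays, with Benjamini-Hochberg adjustment; exact zeros were kept as values. The code was tested on simulated data. Figures used matplotlib 3.10.9 in Python 3.11.15. Alternatives covered zeros and shared values, probe summary, array averaging, leaving out each array, centring and the minimum size.

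The members, the other gene lists and the motifs were chosen with earlier results of these data known. Called members, and those with a 0 on an array or a range above 2, are given array by array; from other lists, up to 3 called genes in each direction are named, and the rest that appear were chosen after their values were seen.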

Additional observations from a re-analysis of the deposited data

Results flagged for a closer look

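Among 4 arrays, 1 value lay far from the other 3 (by Dixon's 95% criterion) for 7 of the 30 complement genes whose arrays differed, or 23.3%, against 17.3% of all genes whose arrays differed. Of the 7, C6, C4a, C8b and Cd46 had exact zeros on 3 arrays, which meets the criterion by construction, so the usual chance rate of about 1 in 20 does not apply to them. Among genes with no exact zero, 2 of 20 complement genes and 5.84% of all genes met it. Array 2-2 stood out for C1qb, at 7.05 with the others between 5.56 and 5.81, and for C4b, at 6.11 with the others between 5.23 and 5.37. C6 had 3.98 on array 1-2 and an exact 0 elsewhere. C4a stood at 0.44 on array 2-1, C8b at 0.06 on array 2-2 and Cd46 at 0.03 on array 1-2, each with exact zeros elsewhere and each at a value that at least 1684 probes of its array shared. C8a stood at -0.49 on array 1-2, with the others between 0.00 and 0.07. Array 2-2 was also the highest for 63.5% of all 345 genes with a mean above 4. Its part in the C1qb and C4b values was not tested.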

How the results depend on the processing

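Of the 12 complement genes called higher, 166 of 168 pairs of gene and alternative kept the call over the 14 alternatives. Many of these pairs could hardly change. Dropping the minimum size cannot remove a call, and by single probes 1 called probe was enough. For the 11 called genes with neither zeros nor shared values, leaving such values out or taking the median of probes left the mean as it was. The 2 exceptions were Cd55 with the median of its probes (1.82, limma adjusted p = 0.0880) and against a 2-fold change with limma's treat (2.07, adjusted p = 0.0811). The count of complement genes higher stayed between 11 and 16, and leaving out 1 array gave 12 to 13. No complement gene was called lower as reported. That count was 2 with exact zeros left out, 2 with zeros and shared values left out, 1 with each array centred on its non-zero median, 1 by single probes and 2 with no minimum size; leaving out any 1 array gave 0. The genes so called were Masp1 and C4bp with zeros left out, C4bp after centring, Masp1 by single probes, and Masp1 and C8g with no minimum size. Among all genes, 1640 of 15102 tested were lower with exact zeros left out, and 1755 of 12158 with shared values left out too. Centring gave 1681 genes lower and single probes 2185. Beside these, counts of 1 or 2 complement genes do not set the list apart. Over all genes, limma's treat called 1338 higher and 694 lower, and no minimum size gave 4534 and 3870. Leaving out 1 array gave 1989 to 2167 higher and 1328 to 1469 lower. With zeros left out, 22 complement genes could be tested, and with shared values left out too, 19. No paired analysis was possible because the samples form 1 group. Signal over background was not used here, so what lies behind exact zeros and shared values was not tested.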
